A study of Homo sapiens with 6 samples.

Results

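ERG, AGAP1, STAP1, CLEC12A, PTPRM and DDIT4L are known as genes that are highly expressed in B cell precursor leukemia with a DUX4 rearrangement, the subtype from which the NALM6 cell line came. These 6 genes were taken by symbol and Ensembl identifier from a table of 57905 genes counted by RNA-SEQ, of which 16622 had enough counts to be tested, all 6 signature genes included. The libraries came from NALM6 cells, an established human line of B cell precursor acute lymphoblastic leukemia. Cells of 3 libraries were treated with the solvent DMSO and cells of 3 libraries with 500 nM of THZ1, a covalent inhibitor of the kinase CDK7, each for 24 h. NALM6 is 1 line, and the labels do not say whether the libraries of a treatment were separate cultures, so the p-values measure the spread between these libraries, which may be technical.

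In this leukemia a translocation, usually into the immunoglobulin heavy chain locus, switches on DUX4, a double homeobox transcription factor that is normally active in the early embryo. The rearranged factor drives a gene signature of its own, in which ERG is often deleted or read from an alternative first exon as a shortened protein, and in which the surface receptor CLEC12A serves as a diagnostic marker. CDK7 is the kinase of the general transcription factor TFIIH that phosphorylates RNA polymerase II, and it also activates the cell cycle kinases.

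THZ1 treatment lowered 5 of the 6 genes, and DDIT4L did not pass the test. STAP1 was downregulated most, 8.13-fold, followed by ERG at 5.0-fold, AGAP1 at 4.0-fold, CLEC12A at 3.21-fold and PTPRM at 1.75-fold. Among all genes tested, 41.1% were called lower and 43.5% higher by edgeR's quasi-likelihood test at a Benjamini-Hochberg adjusted p-value below 0.05, so a lower call by itself is common in these libraries. A decrease of at least 1.5 on the log2 scale was found for 4 of the 6 genes and for 12.9% of all genes tested. Every THZ1-treated library lay below every DMSO-treated library for 5 of the 6 genes, against 41.3% of all genes tested. The median log2 fold change was −1.84 over the 6 genes and 0.03 over all genes tested. The latter depends on the scaling, with −0.22 for library sizes alone and 0.22 for upper quartile factors. Higher and lower are thus relative to the other genes of a library, and RNA per cell was not measured.

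**Figure D1:**
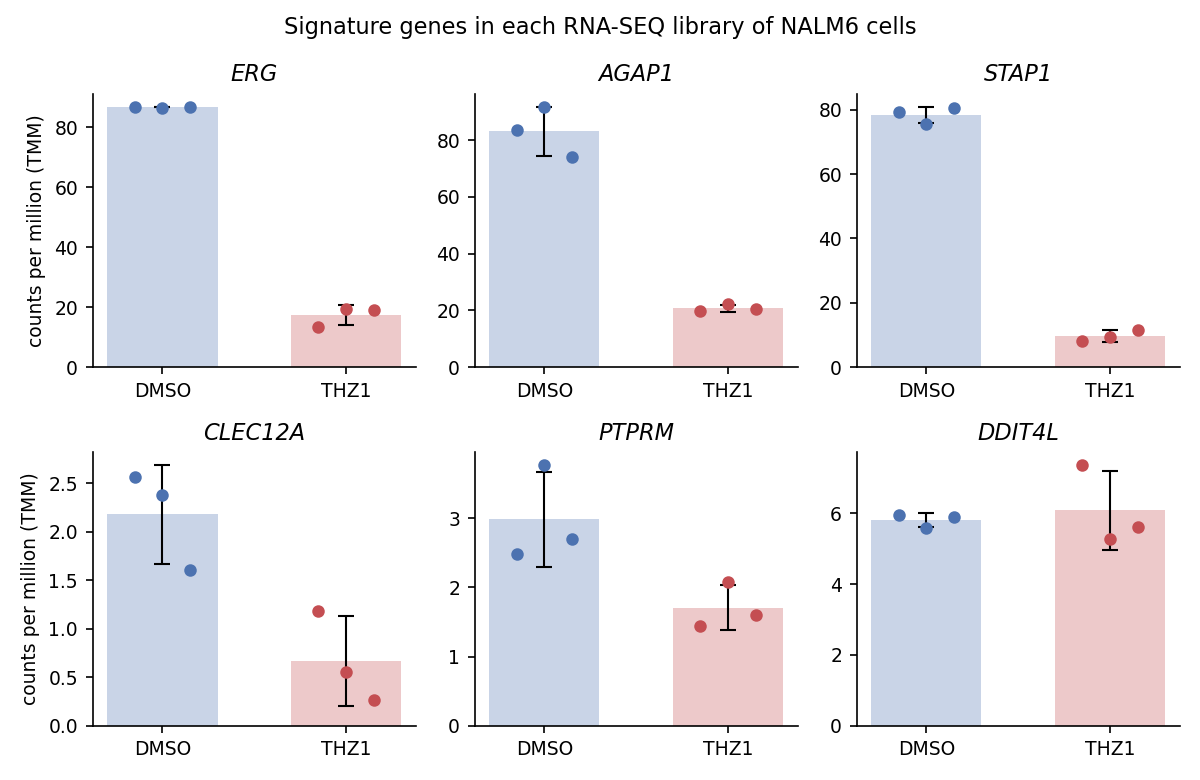
Level in CPM (TMM scaling) of the 6 signature genes, 1 panel a gene, with a point for each library, a bar for the mean and a line for the SD over 3 libraries of each treatment. Every panel starts at 0 and has its own axis. The THZ1-treated points sit below the DMSO-treated points in all panels except that of DDIT4L, where they overlap.

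Gene counts summed to 11015480 to 11164840 in a DMSO-treated and to 7876402 to 8314306 in a THZ1-treated library. A count of 3, used as the detection floor, was worth 0.246 to 0.253 CPM (counts relative to the TMM-scaled library size) in the former and 0.394 to 0.415 CPM in the latter, for counting error only. The 14 B cell precursor markers found in the count table all had at least 10 counts in every DMSO-treated library. Their summed level was 4641 to 4828 CPM with DMSO and 2659 to 2777 CPM with THZ1, and 10 of them were called lower, with CD22 lowest at −2.56, 2 higher, with CD79A highest at 1.33, and 2 not called. The other higher gene, RAG1 of the antigen receptor recombinase, had a log2 fold change of 0.19 (adjusted p = 0.0223) and lost its call with no filter and on leaving out any library except DMSO library 2, and its value was −0.059 with library sizes alone and −0.0071 by limma. Of 12 T and natural killer cell markers, 10 were at or under 3 counts in every DMSO-treated library, and the list summed to 8.61 to 9.43 CPM with DMSO and 10.8 to 16.9 CPM with THZ1. The granule protein gene NKG7 was the only one tested and was called higher, by 0.49 on the log2 scale (adjusted p = 0.0103), although its groups overlapped. The call was lost with library sizes alone (0.24), without THZ1 library 2 (0.35) and by limma on the deposited log2 values (0.36). The 11 erythroid and megakaryocyte markers summed to 2.03 to 2.81 CPM and 7.23 to 8.42 CPM, with both tested genes higher. Among these, ALAS2 of heme synthesis rose by at least 3.63 on the log2 scale over a DMSO group with at most 1 count, and the integrin gene ITGA2B rose by 0.81 in the counts, a call lost with library sizes alone (0.56), by DESeq2 (0.83) and without THZ1 library 3 (0.62), whereas it was lower by 0.59 in the deposited log2 values. The part of these markers in the signature genes' levels was not tested. In bulk RNA, fewer cells of a type and less RNA per cell cannot be told apart.

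Levels of different genes were compared per gene length, in FPKM taken back from the deposited log2 values, which hold 16730 genes and 5 of the 6 signature genes. In DMSO-treated cells STAP1 had the highest level with 114 ± 2.82 FPKM (SD, n = 3), above 94.0% of the genes in that table. ERG followed with 31.9 ± 0.176 FPKM, above 75.3% of the genes. AGAP1 had 17.0 ± 1.44 FPKM, above 61.2% of the genes. DDIT4L, with 6.30 ± 0.293 FPKM, and CLEC12A, with 2.68 ± 0.435 FPKM, lay above 40.9% and 26.4% of the genes. The signature genes thus ran from abundant to scarce in NALM6 cells, with neighbours in this order separated by more than their SDs. Sorted values of that table were nearly equal between libraries of a treatment, by an unstated step, so the SDs may understate the spread. ELF3 and AGAP1-IT1 had 0 counts in DMSO library 3 but read 0.275 FPKM there. Low values, such as that of CLEC12A with THZ1, are thus not reliable as FPKM. Whether the scale is the same in both treatments is not stated. PTPRM was not in that table, and its counts were low. With THZ1 the order changed, as STAP1 with 12.0 ± 2.52 FPKM remained highest, ERG with 4.60 ± 1.14 FPKM and DDIT4L with 3.93 ± 0.979 FPKM differed by less than their spread, AGAP1 had 2.65 ± 0.176 FPKM and CLEC12A had 0.219 ± 0.149 FPKM.

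DUX4 itself had no count in any library. The count table held 16 entries for DUX4 and its near-identical DUX4L copies, and 2 of them had a count, 3 counts in all over the 6 libraries. Reads of such copies map to several places at once and their handling in the counting is not given in the sources used here, so these zeros do not measure the DUX4 transcript. A list of 19 genes with DUX4 and embryonic genes it switches on in other cells, such as ZSCAN4 and LEUTX, had no gene with more than 2 counts in a library, and 14 of them had none at all. Embryonic targets were thus not detected in these counts with either treatment. Some of them, such as the PRAMEF, TRIM and MBD3L genes, also have similar copies. The limit on reads that map to several places may therefore apply to their zeros too.

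Sequences around the annotated starts are shown for the members whose response differed most, so that the starts of downregulated genes can be set beside that of DDIT4L. Each is a RefSeq window of 300 bases on GRCh38.p14, 250 before and 50 after a start, written 5′ to 3′ on the strand of the gene with every CG dinucleotide in capitals. The first ERG window is at the start farthest upstream (chr21:38660618-38660917, minus strand) and the second at a start inside the gene (chr21:38498455-38498754, minus strand). The others are STAP1 (chr4:67558477-67558776, plus strand), CLEC12A (chr12:9971159-9971458, plus strand) and DDIT4L (chr4:100190419-100190718, minus strand).
ERG upstream start: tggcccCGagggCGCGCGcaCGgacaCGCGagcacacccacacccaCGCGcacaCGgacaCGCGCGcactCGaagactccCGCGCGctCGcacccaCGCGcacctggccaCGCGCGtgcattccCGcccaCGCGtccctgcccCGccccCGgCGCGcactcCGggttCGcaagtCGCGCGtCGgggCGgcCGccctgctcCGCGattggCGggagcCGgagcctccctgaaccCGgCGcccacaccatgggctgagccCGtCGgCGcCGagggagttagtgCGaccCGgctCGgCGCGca
ERG internal start: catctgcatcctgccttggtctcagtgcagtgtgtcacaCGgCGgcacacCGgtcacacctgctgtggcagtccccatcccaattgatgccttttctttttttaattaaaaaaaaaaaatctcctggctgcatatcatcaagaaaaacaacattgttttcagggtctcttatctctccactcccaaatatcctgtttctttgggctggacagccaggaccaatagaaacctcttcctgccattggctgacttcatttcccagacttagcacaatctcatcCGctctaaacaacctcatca
STAP1: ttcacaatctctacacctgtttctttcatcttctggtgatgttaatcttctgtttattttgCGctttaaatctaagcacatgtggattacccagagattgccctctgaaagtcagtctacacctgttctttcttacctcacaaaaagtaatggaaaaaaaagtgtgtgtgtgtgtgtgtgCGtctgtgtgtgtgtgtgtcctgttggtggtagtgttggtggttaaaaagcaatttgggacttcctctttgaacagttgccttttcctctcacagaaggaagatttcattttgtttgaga
CLEC12A: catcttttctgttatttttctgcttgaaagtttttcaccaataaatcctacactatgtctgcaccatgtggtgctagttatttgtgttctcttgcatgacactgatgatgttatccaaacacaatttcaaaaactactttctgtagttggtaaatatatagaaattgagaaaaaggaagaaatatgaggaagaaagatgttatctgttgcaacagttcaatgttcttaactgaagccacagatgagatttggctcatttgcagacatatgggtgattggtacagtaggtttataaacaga
DDIT4L: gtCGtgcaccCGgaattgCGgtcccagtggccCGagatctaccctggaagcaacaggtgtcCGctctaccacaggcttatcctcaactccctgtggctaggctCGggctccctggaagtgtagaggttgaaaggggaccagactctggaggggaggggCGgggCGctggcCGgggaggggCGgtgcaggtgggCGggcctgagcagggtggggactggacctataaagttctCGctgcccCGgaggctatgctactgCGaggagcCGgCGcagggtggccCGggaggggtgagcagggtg

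These starts did not share a CG content. The upstream window of ERG held 53 CG sites, more than 99.4% of 35116 RefSeq windows, whose median was 14. PTPRM had 50 CG sites at its upstream start, more than 98.7% of the windows. The other ERG windows, the internal start shown above among them, held only 4 CG sites each. The second PTPRM window held 2. Gene counts do not show which start was used in these cells. STAP1, which fell most, had 2 CG sites and CLEC12A had none, while DDIT4L, which was not called, had 17. AGAP1 had no entry in the RefSeq table used. The letters TATAAA were searched on both strands and occurred in 11.5% of all windows. In DDIT4L they were found at −29 to −24 from the start on the strand of the gene. In CLEC12A they lay after the start, at 41 to 46 on the strand of the gene, and overlapped a match on the opposite strand. The window at the second start of PTPRM held them at −124 to −119 on the strand of the gene, and the other 6 of the 9 windows of these genes held none. A match of letters is a description and not a binding site.

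ERG encodes an ETS family transcription factor of blood stem cells and endothelium (GRCh37 chr21:39751949-40033704, minus strand). It had 86.8, 86.6 and 86.8 CPM in DMSO libraries 1 to 3 and 13.4, 19.5 and 19.1 CPM in THZ1 libraries 1 to 3. The DMSO-treated libraries were nearly equal, and all THZ1-treated libraries lay far below them. The log2 fold change was −2.32 (SE 0.107, 95% interval −2.54 to −2.11, edgeR's quasi-likelihood test, Benjamini-Hochberg adjusted p = 4.83e-19), and 4.27% of the genes tested had a lower one. Gene counts do not separate the full-length transcript from the one that begins at the alternative exon.

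FLI1, the closest relative of ERG, fell alike, by 2.13 on the log2 scale (SE 0.0849, adjusted p = 1.3e-20), from 162 ± 2.65 to 36.9 ± 4.23 CPM (SD, n = 3). The raw count ratio of ERG to FLI1, which needs no scaling between libraries, was 0.527 to 0.546 with DMSO and 0.418 to 0.495 with THZ1. Those ranges did not overlap (exact permutation test, two-sided p = 0.1, which is the lowest value reachable with 3 against 3). FEV, the third member of the subfamily, had no count. Of the 27 other ETS genes, 19 were tested, with 9 higher, 10 lower and a median log2 fold change of −0.32. FLI1 was the lowest of them and ELF3, an epithelial factor, the highest, at least 4.51 higher on the log2 scale over a DMSO group with at most 2 counts. With library sizes alone as scaling, 5 ETS genes in place of 9 were higher, and by limma on the deposited log2 values 3 or 4.

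AGAP1 encodes a GTPase-activating protein for ARF GTPases that works with the AP-3 adaptor in endosomal transport (GRCh37 chr2:236402687-237040437, plus strand). It had 83.4, 91.6 and 74.1 CPM in the DMSO-treated and 19.7, 22.1 and 20.5 CPM in the THZ1-treated libraries. DMSO library 2 was highest and the groups lay well apart. The log2 fold change was −2.0 (SE 0.10, 95% interval −2.20 to −1.79, edgeR's quasi-likelihood test, Benjamini-Hochberg adjusted p = 4.99e-18).

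Its paralog AGAP2 fell less, by 0.71 on the log2 scale (SE 0.112, adjusted p = 8.19e-07). The raw count ratio of AGAP1 to AGAP2 was 2.04 to 3.07 with DMSO and 0.898 to 1.09 with THZ1, without overlap (exact permutation test, two-sided p = 0.1). AGAP3 was lower by 0.96 (adjusted p = 0.025) at 1.94 ± 0.535 and 0.991 ± 0.363 CPM, with groups that overlapped, and it lost its call with upper quartile factors, by DESeq2 and without DMSO library 2 or 3 or THZ1 library 1 or 3. In the list of 27 other ARF GTPase and regulator genes, 25 were tested, of which 14 were lower, 6 higher and 5 not called, with a median log2 fold change of −0.52. The extremes were ASAP2 at −2.23 and ADAP2 at 2.64, both GTPase-activating proteins for ARFs, and the latter's DMSO counts of 13, 3 and 0 were uneven. The count of higher genes ran from 1 in the deposited log2 values to 10 with upper quartile scaling. Of the 6 AP-3 subunits tested, 5 were lower and none was called higher, and the median was −0.91. AP3B1, the large beta subunit, fell most, by 2.7 (SE 0.107, adjusted p = 1.13e-20), from 836, 897 and 825 counts to 80, 74 and 88. AP3M1 fell by 1.60, AP3M2 by 1.29, AP3D1 by 0.53 and AP3S1 by 0.49. AP3S2 had a log2 fold change of 0.37 (adjusted p = 0.0519) in the counts, where it was called higher with RLE or upper quartile scaling, with a filter of 10 counts per library and without DMSO library 2 or THZ1 library 3, and −0.60 in the deposited log2 values.

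STAP1 encodes an adaptor protein with PH and SH2 domains that is phosphorylated by the kinase TEC downstream of the B cell receptor (GRCh37 chr4:68424445-68473055, plus strand). It had 79.3, 75.6 and 80.4 CPM in the DMSO-treated and 8.02, 9.41 and 11.5 CPM in the THZ1-treated libraries. The libraries of each treatment were close to each other and the groups lay far apart. The log2 fold change was −3.02 (SE 0.114, 95% interval −3.25 to −2.79, edgeR's quasi-likelihood test, Benjamini-Hochberg adjusted p = 3.16e-21), and 1.64% of the genes tested had a lower one.

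STAP2, the other STAP adaptor, moved the opposite way. It had 26, 33 and 38 counts with DMSO and 186, 161 and 183 counts with THZ1, a rise of 3.14 on the log2 scale (SE 0.172, adjusted p = 4.25e-17). The raw count ratio of STAP1 to STAP2 went from 25.1 to 36.9 with DMSO to 0.328 to 0.470 with THZ1, so STAP2 had more counts than STAP1 in every THZ1-treated library (exact permutation test of the ratio, two-sided p = 0.1). Of the 16 other adaptors and TEC family kinases, 13 were tested, with 7 higher, 6 lower and a median log2 fold change of 0.50. TXK, a kinase of T cells, was the lowest, at least 2.06 lower on the log2 scale with 2, 3 and 2 counts after THZ1. BLNK, the central adaptor of the B cell receptor, fell by 2.05 and the kinase BTK by 0.89, whereas the adaptors SH2B3 and GRB2 rose by 2.10 and 0.97.

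CLEC12A encodes an inhibitory C-type lectin receptor of myeloid cells that recruits SH2 domain phosphatases (GRCh37 chr12:10103915-10148293, plus strand). It was scarce, with 31, 29 and 19 counts in the DMSO-treated and 9, 4 and 2 counts in the THZ1-treated libraries. In CPM this was 2.56, 2.38 and 1.60 against 1.18, 0.554 and 0.267. THZ1 library 1 was the highest and DMSO library 3 the lowest of their groups, and the groups did not overlap. The log2 fold change was −1.68 (SE 0.435, 95% interval −2.57 to −0.79, edgeR's quasi-likelihood test, Benjamini-Hochberg adjusted p = 0.000728). Without THZ1 library 1 it was −2.39, so the size of the fall rests on few counts.

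Of the 18 other lectin genes of the natural killer gene complex, which surrounds CLEC12A on chromosome 12, 4 were tested and 14 were too low. CLEC2D, a ligand of a natural killer cell receptor, fell by 3.33 on the log2 scale (SE 0.143, adjusted p = 8.25e-20), from 606, 637 and 543 counts to 48, 28 and 33. The inhibitory receptor gene KLRG1 fell by 1.70 (adjusted p = 0.0037) from at most 15 counts, was not called by DESeq2 (adjusted p = 0.061), and could not be tested without DMSO library 1 or 2 or with at least 10 counts in every library. CLEC2B and CD69 were not called, although both were called higher with upper quartile scaling, and CLEC2B also with at least 10 counts in every library. CD69 had a log2 fold change of 0.35 (adjusted p = 0.185) in the counts and −0.51 in the deposited log2 values. The neighbour and paralog CLEC12B had at most 5 counts and was not tested. Among the 4 phosphatases that such receptors recruit, PTPN11 fell by 1.27, INPP5D by 0.94 and PTPN6 by 0.75, whereas INPPL1 rose by 0.40, and all 4 passed the test. Of 12 myeloid markers, 7 were tested, with 4 higher, 2 lower and 1 not called, and the list summed to 12.9 to 14.6 CPM with DMSO and 25.5 to 26.9 CPM with THZ1. The sialic acid receptor gene CD33 fell by 2.12, alongside CLEC12A, while the growth factor receptor gene CSF3R rose by at least 3.50 from 0 counts in every DMSO-treated library. LYZ, the lysozyme gene and the other lower marker, had a log2 fold change of −0.83 (adjusted p = 0.036) and groups that overlapped. Its call was lost with RLE or upper quartile factors, by DESeq2, with the replicate block (adjusted p = 0.0556) and without DMSO library 1 or 2 or THZ1 library 1 or 2, where the adjusted p was 0.0532 to 0.173.

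PTPRM encodes a receptor tyrosine phosphatase that binds to itself between neighbouring cells (GRCh37 chr18:7566780-8406859, plus strand). It had 30, 46 and 32 counts with DMSO and 11, 15 and 12 counts with THZ1. In CPM the libraries had 2.48, 3.77 and 2.7 against 1.45, 2.08 and 1.60, so DMSO library 2 was high and the groups did not overlap. The log2 fold change was −0.80 (SE 0.318, 95% interval −1.45 to −0.16, edgeR's quasi-likelihood test, Benjamini-Hochberg adjusted p = 0.0206). This call was not stable. The adjusted p was 0.0761 with upper quartile scaling, 0.121 by DESeq2, 0.107 without DMSO library 2, 0.0742 without THZ1 library 1 and 0.0548 without THZ1 library 3, with a log2 fold change between −0.79 and −0.61 in these fits.

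PTPRK, its close relative, had 30, 59 and 21 counts with DMSO and 5, 6 and 8 with THZ1, a log2 fold change of −1.82 (SE 0.418, adjusted p = 2.00e-04). The raw count ratio of PTPRM to PTPRK, 0.780 to 1.52 with DMSO and 1.5 to 2.5 with THZ1, overlapped between treatments (exact permutation test, two-sided p = 0.2). PTPRT had no count and PTPRU at most 2. Among the 19 other receptor tyrosine phosphatases, 9 were tested, with 7 lower, 1 higher, 1 not called and a median log2 fold change of −1.34. PTPRC, which encodes the leukocyte antigen CD45, had 15, 14 and 14 counts with DMSO and 0, 0 and 3 with THZ1, at least 1.56 lower on the log2 scale. PTPRN, a protein of neuroendocrine secretory granules, rose from 2, 0 and 0 counts to 94, 94 and 98, at least 5.69 higher.

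**Figure D2:**
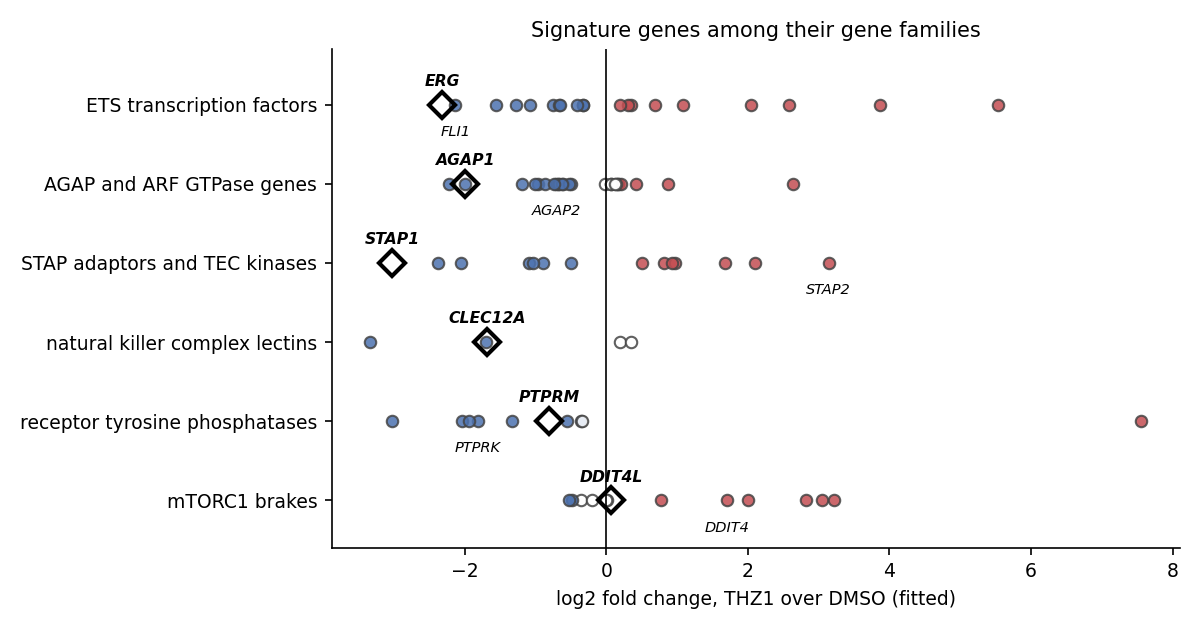
Fitted log2 fold change, THZ1 over DMSO, of each signature gene (open diamond) and of the tested genes of its family (circles, 1 row a family), with blue for lower, red for higher and white for not called. Related genes named in the text are marked below their row. ERG, AGAP1, STAP1, CLEC12A and PTPRM lie left of 0 and DDIT4L near 0, while STAP2 and DDIT4 lie to the right. The values of ELF3 and PTPRN, at the far right of their rows, are fits over a DMSO group at or under 3 counts.

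DDIT4L encodes an inhibitor of the growth kinase complex mTORC1, which acts through the TSC proteins (GRCh37 chr4:101107027-101111939, minus strand). It had 5.95, 5.57 and 5.91 CPM in the DMSO-treated and 7.36, 5.26 and 5.61 CPM in the THZ1-treated libraries. THZ1 library 1 was above and THZ1 library 2 below all DMSO-treated libraries, so the groups overlapped. The log2 fold change was 0.07 (SE 0.202, 95% interval −0.34 to 0.48, edgeR's quasi-likelihood test, Benjamini-Hochberg adjusted p = 0.758), and 15.5% of the genes tested were likewise not called. Its direction was not stable, with values of −0.18 with library sizes alone, 0.26 with upper quartile factors, −0.019 with no filter and −0.10 without THZ1 library 1, none of them called. It was −0.58 by limma on the deposited log2 values (adjusted p = 0.0121), by which 44.2% of the genes were called lower. Sorted values of that table were nearly equal between libraries of a treatment, by an unstated step. This adjusted p may therefore not measure the spread between libraries. The median of the genes shared with the edgeR fit shifted by −0.26 in the limma fit. The deposited log2 values were 2.89, 2.80 and 2.91 with DMSO and 2.60, 2.07 and 2.19 with THZ1, without overlap.

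DDIT4, its paralog and a stress-induced inhibitor of the same complex, rose by 1.71 on the log2 scale (SE 0.0726, adjusted p = 6.91e-20), from 116 ± 6.72 to 379 ± 28.1 CPM (SD, n = 3). The raw count ratio of DDIT4 to DDIT4L was 19.5 to 20.5 with DMSO and 55.9 to 68.8 with THZ1, without overlap (exact permutation test, two-sided p = 0.1). Of 12 other genes that restrain mTORC1 and were tested, 6 were higher, 2 lower and 4 not called, with a median log2 fold change of 0.39. CASTOR1, an arginine sensor, was the highest at 3.22, from 1, 2 and 6 counts to 18, 20 and 16, and in the deposited log2 values its difference was 0.36 and was not called. The stress genes SESN1 and SESN2 of the sestrin family rose by 3.04 and 2.0, and AKT1S1, which encodes an inhibitory subunit of the complex, by 2.81. DEPDC5, of the GATOR1 complex, was the lowest, with a fall of 0.53, and NPRL3 of the same complex fell by 0.49. With library sizes alone as scaling, 6 genes of this list in place of 2 were lower, by limma 5, and without DMSO library 1 or with no filter 4.

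**Figure D3:**
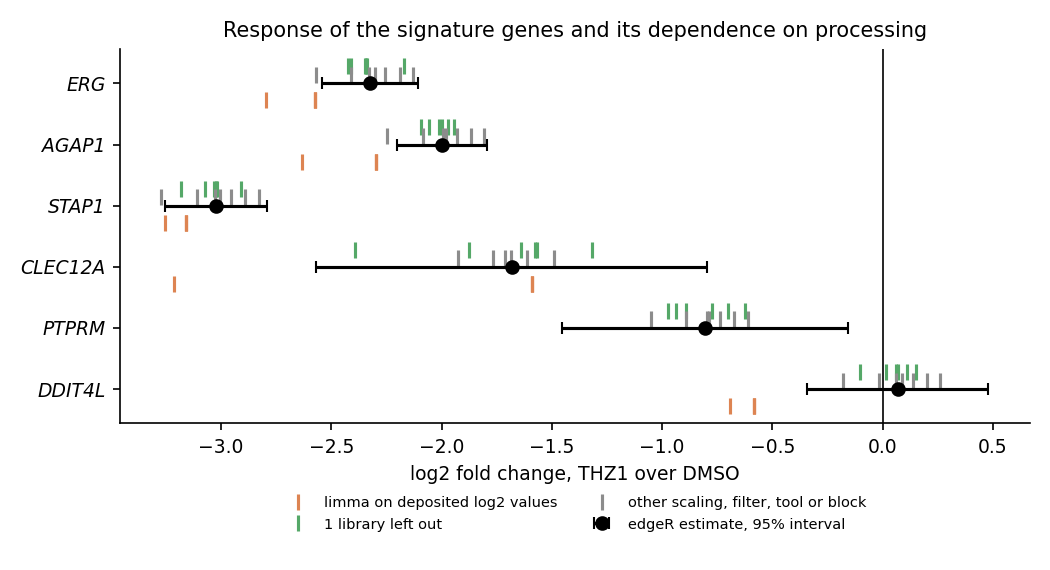
Log2 fold change, THZ1 over DMSO, of the signature genes, with black points and lines for the edgeR estimate and its 95% interval, and ticks for the alternatives (green for 1 library left out, orange for limma on the deposited log2 values, grey for the other settings). All ticks of ERG, AGAP1, STAP1, CLEC12A and PTPRM lie below 0, whereas those of DDIT4L run from −0.69 to 0.26.

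The fitted fall of STAP1 was larger than those of ERG and AGAP1. The 95% interval of STAP1 (−3.25 to −2.79) lay apart from that of ERG (−2.54 to −2.11). The intervals of ERG and AGAP1 (−2.20 to −1.79) overlapped. CLEC12A and PTPRM were not compared with these genes by ratio. The raw count ratio of ERG to STAP1 was 1.08 to 1.15 with DMSO and 1.66 to 2.07 with THZ1, and that of AGAP1 to STAP1 was 0.921 to 1.21 and 1.78 to 2.46. The ratio of AGAP1 to ERG was 0.853 to 1.06 and 1.07 to 1.47. None of these ranges overlapped between treatments, although the gap was small for AGAP1 to ERG (exact permutation test, two-sided p = 0.1 for each). Over the 8 ratios computed here the Benjamini-Hochberg adjusted p was 0.114 for the 7 without overlap and 0.2 for PTPRM to PTPRK.

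The genes differed widely in size. On GRCh37 the span was 840.08 kb for PTPRM, 637.751 kb for AGAP1, 281.756 kb for ERG, 48.611 kb for STAP1, 44.379 kb for CLEC12A and 4.913 kb for DDIT4L. Of the protein-coding genes tested, 99.7% were shorter than PTPRM, which fell least among the called genes, and 8.73% were shorter than DDIT4L. The median log2 fold change was 0.69 over 2397 protein-coding genes below 10 kb, −0.28 over 7433 genes of 10 to 100 kb and −0.64 over 2099 genes above 100 kb. The part of gene span in the signature genes' response was not tested.

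**Figure D4:**
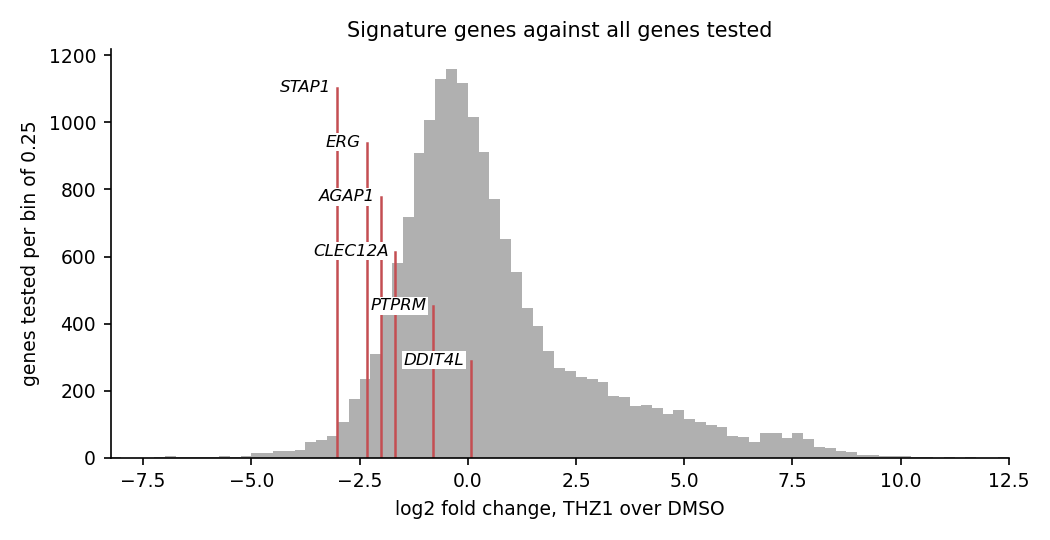
Number of genes tested in each bin of 0.25 of the log2 fold change, THZ1 over DMSO (grey), with the 6 signature genes marked by red lines whose height has no meaning. STAP1, ERG, AGAP1 and CLEC12A lie in the left part of the distribution, PTPRM nearer to its peak and DDIT4L close to 0.

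Other genes reported as high in the same leukemia were measured too. CHST2, a sulfotransferase of cell surface sugars, fell by 2.31 on the log2 scale (SE 0.0805, adjusted p = 4.15e-22), from 3048, 2755 and 2777 counts to 332, 348 and 387. GPR155, a lysosomal membrane protein, fell by 2.06 (SE 0.116, adjusted p = 9.49e-17), from 634, 633 and 535 counts to 81, 96 and 89. CCNJ, a cyclin, was higher by 0.39 (SE 0.0885, adjusted p = 0.000156), at 652, 789 and 600 against 568, 529 and 556 counts, and by 0.14 with no call under library sizes alone. By limma on the deposited log2 values with a pseudocount of 0.1 it was not called (adjusted p = 0.0505). CD2, an adhesion molecule of T cells that can appear on these leukemias, had 1 count over all libraries. Of 14 genes that mark other leukemia subtypes, 11 were at or under 3 counts in every DMSO-treated library. The 3 tested were NUTM1, which rose by 2.84 from 1, 5 and 4 counts, CSPG4, higher by 0.93 in the counts but lower by 0.43 in the deposited log2 values (adjusted p = 0.00451), and MERTK, which fell by 1.52 (adjusted p = 0.000842). With DMSO, CSPG4 had a mean of 3.32 CPM and MERTK of 2.08 CPM. These levels were near those of the signature genes PTPRM, with 2.98 CPM, and CLEC12A, with 2.18 CPM.

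The genes whose pattern over the 6 libraries was nearest to each signature gene were sought among 9574 genes with a mean of at least 10 CPM, by the root mean square difference of centred log2 CPM. For ERG these were ZDHHC13, a palmitoyltransferase family gene (0.0439), and the redox gene NXN (0.0684). For AGAP1 they were SFXN2, a mitochondrial carrier (0.0274), and PAX5, the B lineage transcription factor (0.0392). STAP1 had HADH, of fatty acid oxidation (0.0802), and APIP, of methionine salvage (0.0952). PTPRM had TUT7, an RNA uridylyltransferase (0.0924), and the zinc finger gene ZNF518B (0.102). The nearest to DDIT4L were PXN-AS1 (0.0610), an antisense RNA, and RRP8 (0.0730), of ribosomal RNA processing, neither of which was called. CLEC12A had no pattern as near, with the centromere gene CENPQ at 0.297 and the zinc finger gene ZNF41 at 0.306. It lay below the 10 CPM set for the genes searched, and counting noise in its few counts may add to this distance.

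Genes that overlap a signature gene on the same strand could affect its counts under any strand setting. Reads may be assigned to the other gene, or be dropped where they fit both. For a gene on the opposite strand this holds where the counting did not use strand. No strand setting and no rule for reads over several genes is given in the sources used here. The annotation placed 25 genes over the 6 signature genes, of which 21 were in the count table, 18 of these at or under 3 counts in every library, and 2 were tested. AGAP1-IT1, a transcript within an intron of AGAP1 on the same strand, rose from 1, 4 and 0 counts to 48, 35 and 40 while AGAP1 fell, a log2 fold change of 5.19 (SE 0.465, adjusted p = 8.27e-12). The counts of AGAP1-IT1 may include reads of unspliced AGAP1 RNA, which was not tested. H2AZ1-DT, a long RNA on the strand opposite to DDIT4L that spans all of it, had 3603, 3368 and 3726 counts with DMSO and 1904, 1594 and 1882 with THZ1, a log2 fold change of −0.30 (SE 0.0711, adjusted p = 0.000309), and −0.10 with no call under upper quartile scaling. It had far more counts than DDIT4L, whose 38 to 72 counts may include reads of it or lack reads dropped because they fit both genes. CLEC1B, which overlaps CLEC12A on the opposite strand, had at most 3 counts, and no gene overlapped STAP1.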

How the data were processed

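Gene expression was measured by RNA-SEQ in 6 libraries. The authors filtered the reads, mapped them to GRCh37 with STAR and counted them per gene with htseq-count. The raw counts were used as deposited. The annotation and the strand setting are not given in the sources used here. A second deposited table holds log2 values that the authors made from FPKM, which RSEM calculated, and they were read as log2(FPKM + 1). This reading is an assumption, and genes without a count in a library can have a value above 0 there. Their sorted values are nearly equal between libraries of a treatment, by a step that is not stated. The design assumed FPKM on a linear scale and was kept. Columns with the authors' own fold changes, p-values and FDR were not used.

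Genes passing filterByExpr (minimum count 10, minimum total count 15) were scaled by TMM and tested with edgeR's quasi-likelihood test, THZ1 against DMSO, two-sided, with Benjamini-Hochberg adjustment over 16622 genes and a call at an adjusted p-value below 0.05. Adjusted p-values are from this test unless another is named. Intervals are 95%. As alternatives, the scaling was replaced by RLE or upper quartile factors or by plain library sizes, and the test by DESeq2. The filter was dropped or raised to 10 counts in each library. The fit was repeated with a replicate block and 6 times with 1 library missing. The deposited log2 values were tested with limma (pseudocount 1 or 0.1, mean FPKM of at least 0.1 or 1, or no filter). The script was tested on simulated counts. The libraries of a treatment were kept apart because they varied beyond sampling noise (chi-square per gene 1.78 to 8.61). Spans and overlaps came from GENCODE on GRCh37.

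The members and the gene lists were chosen with earlier results of these data known. Named genes were the members, their paralogs, the highest and lowest tested gene of each list, all further DUX4-rearranged genes, the nearest patterns and overlapping genes. BLNK, BTK, SH2B3, GRB2, AP3M1, AP3M2, AP3D1, AP3S1, KLRG1, CLEC2B, INPP5D, PTPN6, LYZ, SESN1, SESN2, AKT1S1, NPRL3, RAG1 and CSPG4 fall outside this rule and were picked with their values known. Of 232 list entries, 230 were matched in the count table. R 4.3.3, edgeR 4.0.16, limma 3.58.1, DESeq2 1.42.0, Python 3.11.15, pandas 2.3.3, scipy 1.17.1 and matplotlib 3.10.9 were used.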

Additional observations from a re-analysis of the deposited data

How the results depend on the processing

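ERG, AGAP1 and STAP1 kept their direction and call under all 17 alternatives, with log2 fold changes of −2.80 to −2.13, −2.63 to −1.81 and −3.27 to −2.83. CLEC12A did so under 16, from −3.21 to −1.32, and could not be tested with at least 10 counts in every library. Leaving out 1 library gave −2.43 to −2.17 for ERG, −2.10 to −1.95 for AGAP1, −3.18 to −2.91 for STAP1 and −2.39 to −1.32 for CLEC12A, whose lowest value was without THZ1 library 1. PTPRM kept its call under 8 of 13 alternatives, with adjusted p between 0.0033 and 0.121. Its log2 fold change was −0.61 with upper quartile factors and −0.79 by DESeq2, both without a call, and −0.98 to −0.62 with 1 library left out, where the call was lost without DMSO library 2, THZ1 library 1 or THZ1 library 3. PTPRM was not in the deposited log2 table, so limma gave no value for it. DDIT4L turned from 0.07 to −0.18 with library sizes alone, to −0.019 with no filter, and to −0.58 by limma with a pseudocount of 1 or −0.69 with 0.1, and ran from −0.10, without THZ1 library 1, to 0.15 with 1 library left out. The cause was not tested.

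Relative to TMM, the median of all genes shifted by 0.07 with RLE factors, 0.19 with upper quartile factors, −0.25 with library sizes alone, 0.02 by DESeq2, 0.13 with at least 10 counts in every library, −0.09 with no filter, and −0.26 or −0.31 by limma with a pseudocount of 1 or 0.1, so that shifts of this size in 1 gene are shared by the rest.

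Among the other named genes, PXN-AS1 turned to −0.19 with library sizes alone, −0.025 with no filter and −0.33 or −0.37 by limma, with a lowest value of −0.13 with 1 library left out. RRP8 turned to −0.21, −0.050 and −0.28 or −0.30 in the same settings and ran from −0.11 to 0.11 with 1 library left out. By limma AP3S2 turned to −0.60 or −0.83, CD69 to −0.51 or −0.64, ITGA2B to −0.59 or −1.04, CSPG4 to −0.43 or −0.69, CLEC2B to −0.0087 or −0.0100 and RAG1 to −0.0071 or −0.0070. With library sizes alone CLEC2B turned to −0.054 and RAG1 to −0.059. Over the other named genes and list counts, 1355 values kept their call and direction, 86 counts moved by over 1.5 times and 43 fold changes turned direction. Among the fold changes that kept their direction, 37 calls were lost and 8 gained. Calls lost or gained by the 43 that turned are not in these numbers.

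Deviations of same-numbered libraries from their treatment means correlated by −0.0040, 0.00097 and 0.021, and those of differently numbered libraries by −0.018 to 0.017. No pairing by replicate number was thus detected, which does not exclude that libraries were processed in pairs. With the replicate block, 7181 genes were higher and 6786 lower, against 7224 and 6826 without it, PTPRM had an adjusted p of 0.0352, and no call of a signature gene changed.

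Depth limits CLEC12A, PTPRM and DDIT4L, which had at most 72 counts in a library, and the genes near 3 counts.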
